A study of Homo sapiens with 12 samples.

Results

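The genes described are 10 of the 61044 gene IDs in the deposited table: 7 small leucine-rich proteoglycans (FMOD, LUM, BGN, DCN, PRELP, OGN and ASPN) and 3 lysyl oxidases (LOX, LOXL1 and LOXL2). They were chosen by family membership, as relatives and matrix partners of fibromodulin (FMOD), the gene that was depleted. The cells were SCC-15, a long-established oral squamous carcinoma line, lysed for RNA sequencing at 48 hours. The 4 groups of 3 libraries each carried either a control hairpin (NC) or 1 of 3 different short hairpin RNAs directed at FMOD (shRNA1, shRNA2 and shRNA3). The sources used here do not say whether the libraries of a group came from separate cultures, so p-values measure the spread between these libraries, which may be technical. All groups come from 1 cell line grown without stromal cells, and the hairpin sequences are not given in the sources used here.

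Small leucine-rich proteoglycans are secreted proteins with a curved core of leucine-rich repeats that lies along collagen fibrils and sets their width and spacing. Fibromodulin, lumican and osteoglycin can carry keratan sulfate, decorin and biglycan carry chondroitin or dermatan sulfate, and asporin and PRELP are found without such chains. Lysyl oxidases are secreted copper enzymes that oxidise lysines of collagen and elastin, the first step of covalent cross-linking, and fibromodulin is known to bind both collagen and lysyl oxidase. In connective tissue, fibroblasts are the usual source of most of these proteins, while carcinoma cells are known to make lysyl oxidases themselves. The question asked here was which relatives of FMOD these cells transcribed, and whether any was higher when FMOD was targeted.

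The cells transcribed the lysyl oxidases and, of the 7 proteoglycans, little beyond BGN and LUM in NC. LUM, BGN and LOXL2 were called lower with all 3 hairpins, as were 19.7% of all tested genes (16% were called higher). LOXL1 was called higher with shRNA2 and shRNA3. None of the 7 proteoglycans was called higher with any hairpin by edgeR's quasi-likelihood test, with or without a filter on low counts. Of the 10 genes, 5 (LUM, BGN, LOX, LOXL1 and LOXL2) had enough counts to be tested by edgeR's quasi-likelihood test, in 1 model over all 12 libraries with adjustment over the 17532 genes tested. LUM and BGN reached the filter through NC alone, so the number that passed is no measure of the family's behaviour. The share of all tested genes called at an adjusted p under 0.05 was 57.4% with the first hairpin, 53% with shRNA2 and 53.9% with shRNA3, so a call by itself sets no gene apart. Against those shares, 3 of the 5 tested members were called with shRNA1, 5 with shRNA2 and 4 with shRNA3. With shRNA1 they were 0 higher and 3 lower, where 26.8% of all tested genes were higher and 30.6% lower. With shRNA2 they were 1 higher and 4 lower (24.6% and 28.4% of all tested genes), and with shRNA3 1 higher and 3 lower (26.4% and 27.6%). The 3 comparisons share the same NC libraries and are not independent of each other.

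Library totals ran from 17286934 to 19567192 counts. Libraries 1 and 2 of shRNA3 stood apart from library 3: their log2 CPM correlated across genes at 0.995 with each other and at 0.919 and 0.916 with library 3, and their scaling factors were 0.771 and 0.795 against 1.06. For shRNA3, the value without libraries 1 and 2 is therefore given beside each tested member other than LUM, which was at 0 in all 3 libraries, and beside each other named gene whose call, direction or size it moved, apart from genes with a few counts in shRNA3. Of the shRNA3 calls, 48.9% were higher than NC, and 35.1% when libraries were scaled by their totals alone, a scaling that moved the median of all genes for shRNA3 from -0.03 to -0.35 (log2). Markers of squamous epithelium were present in all groups, with summed levels of 2310 to 2524 CPM in NC and 1949 to 2641 CPM over the shRNA libraries, although 3 of its 10 genes were called lower and 4 higher with all 3 hairpins.

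FMOD itself (ENSG00000122176, chr1:203340628-203351758, minus strand, GRCh38, GENCODE 29) was close to the limit of detection before any depletion. It had 2, 2 and 3 counts in the NC libraries and 0 in all 9 shRNA libraries. Every shRNA library was thus below every NC library, which held for 25.8% of all tested genes. On the log2(CPM + 1) scale the difference was -0.16, with p = 0.00455 in an exact two-sided permutation test over 9 against 3 libraries, the smallest p that its 220 splits allow. That test treats the libraries of all 3 hairpins as 1 condition and ignores the 4 groups. Its p therefore does not measure the spread between hairpins or between cultures. Pooled over a group, the 7 counts of NC correspond to 0.117 CPM (exact 95% interval 0.0470 to 0.241), and the 0 counts of shRNA1, shRNA2 and shRNA3 allow up to 0.0499, 0.0567 and 0.0633 CPM, the level of 3 counts over a group. Intervals and floors cover counting error only. No fold change is given, because each NC library lay at or under the floor of 3 counts. FMOD did not reach the filter of the test across genes; with the filter removed, edgeR's quasi-likelihood test gave adjusted p-values of 0.0917, 0.113 and 0.123 for the 3 hairpins and 0.0144 for their mean against NC. FMOD counts were thus lower in all 9 shRNA libraries, but no single hairpin passed the test across genes. The depth of these libraries does not show the size of the difference.

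**Figure D1:**
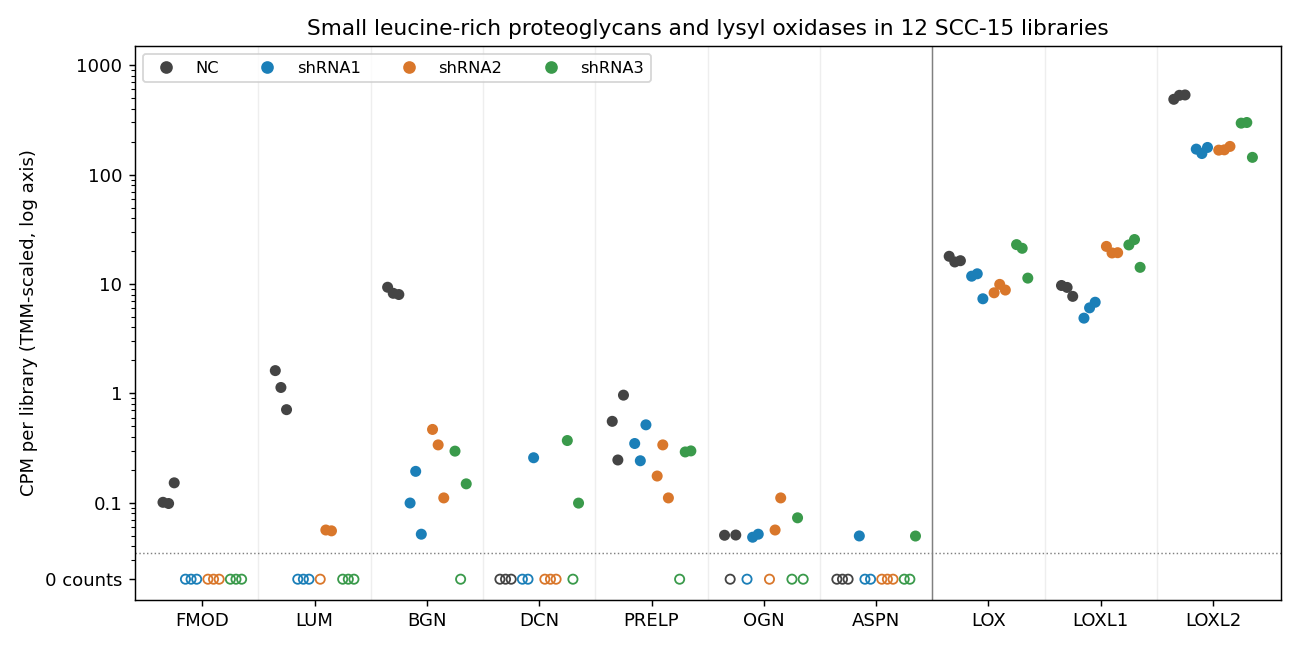
TMM-scaled CPM of the 10 genes in each of the 12 libraries, coloured by group, on a log axis with libraries at 0 counts drawn as open circles at the bottom. LOXL2 sits above 100 CPM in all libraries, and DCN, OGN and ASPN stay near 0 in all groups. BGN and LUM lie higher in NC than in any shRNA library, with LUM at only 0.710 to 1.61 CPM in NC.

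Levels of different genes were compared per length, as RPKM over the union of exons. In NC the most abundant of the 10 was LOXL2 at 90.7 ± 4.55 RPKM (SD, n = 3), followed by BGN at 3.47 ± 0.290, LOX at 3.01 ± 0.191 and LOXL1 at 2.45 ± 0.289 RPKM. These 4 did not overlap between neighbours in that order. LUM came next at 0.383 ± 0.150 RPKM, then PRELP at 0.102 ± 0.0626 and FMOD at 0.0344 ± 0.00890 RPKM, whose libraries overlapped, and OGN at 0.0101 ± 0.00879 RPKM. DCN and ASPN had 0 counts in NC. With the hairpins LOXL2 stayed first, at 29.4 ± 1.92, 30.2 ± 1.33 and 43.1 ± 15.5 RPKM. The order of the next genes differed: LOX (1.89 ± 0.499) and LOXL1 (1.62 ± 0.268) overlapped in shRNA1, LOXL1 (5.55 ± 0.443) lay above LOX (1.62 ± 0.148) in shRNA2, and BGN was at 0.0468, 0.125 and 0.0605 RPKM in the 3 groups.

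BGN, the gene of biglycan (ENSG00000182492, chrX:153494939-153509554, plus strand), showed the clearest loss among the proteoglycans. Biglycan is a fibril-binding proteoglycan that is also known as a soluble ligand of Toll-like receptors. NC libraries held 185, 167 and 158 counts (9.33, 8.22 and 8.01 CPM). The counts were 2, 4 and 1 in shRNA1, 8, 6 and 2 in shRNA2, and 4, 0 and 3 in shRNA3. All 9 shRNA libraries lay far below the lowest NC library. The log2 fold changes were -6.12 (SE 0.66), -4.78 (0.60) and -5.78 (0.66), with adjusted p-values of 1.72e-05, 5.06e-05 and 2.73e-05 by edgeR's quasi-likelihood test. These correspond to levels 69.5, 27.4 and 55.1 times lower than NC, estimates that rest on 0 to 8 counts per shRNA library. The shRNA3 value was -6.47 without its library 1 and -5.23 without its library 2, and no pair of hairpins was called different in BGN by that test. Leaving out any 1 library left each of the 3 calls in place, as did leaving out libraries 1 and 2 of shRNA3 together (-5.75 for shRNA3). HAUS7, on the opposite strand, overlaps the gene but not its exons.

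LUM, the gene of lumican (ENSG00000139329, chr12:91102629-91111831, minus strand), encodes a close relative of fibromodulin that binds the same region of collagen. It had 32, 23 and 14 counts in NC (1.61, 1.13 and 0.710 CPM). No count was seen in any library of shRNA1 or shRNA3, and shRNA2 had 0, 1 and 1. All shRNA libraries were below NC. Against that same floor of 3 counts over a group, LUM was at least 23.1-fold lower in shRNA1 and at least 18.2-fold lower in shRNA3. The ratio of NC to shRNA2 was 30.5 with a counting interval of 8.13 to 257. edgeR's quasi-likelihood test gave 0.000579, 0.00166 and 0.000866 as adjusted p-values, and they stayed under 0.05 with each library left out in turn. These data come from bulk RNA, in which fewer cells with a transcript and less transcript per cell cannot be told apart.

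The remaining 4 proteoglycans were at the edge of detection and were not tested in the main model. PRELP (ENSG00000188783, chr1:203475828-203491352), which links basement membrane to matrix, had 11, 5 and 19 counts in NC, 7, 5 and 10 in shRNA1, 3, 6 and 2 in shRNA2, and 0, 4 and 6 in shRNA3. Its groups overlapped, and 4 of 9 shRNA libraries lay below the lowest NC library. With the filter removed, its adjusted p-values by edgeR's quasi-likelihood test were 0.553, 0.227 and 0.209, so no call was made. Pooled over a group, PRELP stood at 0.584 CPM in NC (exact 95% counting interval 0.407 to 0.813), 0.366 in shRNA1 (0.229 to 0.553), 0.208 in shRNA2 (0.104 to 0.372) and 0.211 in shRNA3 (0.101 to 0.388). The intervals of shRNA2 and shRNA3 did not meet that of NC, but they leave out the spread between libraries, which in NC ran from 5 to 19 counts.

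DCN (ENSG00000011465, chr12:91140484-91183123), the gene of decorin, had 0 counts in NC and shRNA2. Its 12 counts came from 3 libraries: 5 in shRNA1 library 3, and 5 and 2 in shRNA3 libraries 1 and 3. OGN (ENSG00000106809, chr9:92383967-92404696), the gene of osteoglycin, had at most 2 counts in any library. ASPN (ENSG00000106819, chr9:92456205-92482506), the gene of asporin, had 1 count in each of 2 libraries. OGN and ASPN both lie within CENPP on the opposite strand. The smallest adjusted p for these 3 genes without the filter was 0.113, for DCN in shRNA3, by edgeR's quasi-likelihood test; its unadjusted p of 0.0392 was the single value under 0.05 among them. The 0 counts of DCN and ASPN in NC allow up to 0.0501 CPM each.

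LOXL2 (ENSG00000134013, chr8:23297189-23425328, minus strand) encodes a secreted oxidase that acts on basement-membrane collagen and is well known from invasive carcinomas. Its NC libraries held 488, 531 and 535 CPM. The values were 171, 156 and 177 CPM in shRNA1, 167, 168 and 181 in shRNA2, and 295, 299 and 144 in shRNA3. All 9 lay below NC, with library 3 of shRNA3 near the other hairpins and libraries 1 and 2 between them and NC. LOXL2 fell by 1.62 (SE 0.23), 1.59 (0.23) and 1.07 (0.23) on the log2 scale, or 3.08-, 3.01- and 2.10-fold, with adjusted p-values of 0.000128, 0.000160 and 0.00210 by edgeR's quasi-likelihood test. Without libraries 1 and 2 of shRNA3 the log2 difference for that hairpin was -1.82, and without its library 3 it was -0.80. No pair of hairpins was called different in LOXL2 by the same test (adjusted p 0.0838 for shRNA1 against shRNA3 and 0.146 for shRNA2 against shRNA3). Without shRNA3 library 3, both differences passed it (-0.81 and -0.77, adjusted p 1.09e-06 and 2.46e-06).

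The exons of LOXL2 overlap those of ENTPD4 on the same strand and of a rarely counted gene on the opposite strand, so part of the reads could not be assigned with certainty. ENTPD4, a nucleotide-hydrolysing enzyme of the secretory pathway, stood at 80.9 CPM with the control hairpin and at 41.0, 36.9 and 37.9 CPM with the 3 hairpins, and its fall was called in all 3.

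LOXL1 (ENSG00000129038, chr15:73925989-73952137, plus strand), an oxidase that acts mainly on elastin and is known to be held on elastic fibres by fibulins, did not move in 1 direction. NC libraries held 9.68, 9.30 and 7.70 CPM. The values were 4.87, 6.05 and 6.81 CPM in shRNA1, 22.05, 19.2 and 19.3 in shRNA2, and 22.7, 25.5 and 14.2 in shRNA3. All libraries of shRNA2 and shRNA3 lay above every NC library, and all of shRNA1 lay below. LOXL1 rose by 1.18 (SE 0.24) on the log2 scale with shRNA2 and by 1.22 (0.24) with shRNA3, with adjusted p-values of 0.00144 and 0.00118 by edgeR's quasi-likelihood test. With shRNA1 the difference was -0.59 (0.24), adjusted p 0.0529 by the same test.

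LOXL1 differed between hairpins directly. It was lower with shRNA1 than with shRNA2 by -1.77 (SE 0.24), adjusted p 0.00233, and than with shRNA3 by -1.81 (0.24), adjusted p 0.00248, in edgeR's quasi-likelihood test. In these pairs 12.3% and 30% of all tested genes were called, and of the 5 tested members 1 and 2 were. Without libraries 1 and 2 of shRNA3, LOXL1 was 0.70 above NC with that hairpin (adjusted p 0.0138, edgeR's quasi-likelihood test) and the difference of shRNA1 from shRNA3 was -1.28 (adjusted p 0.00441, same test). LOXL1 was the single member called higher with any hairpin, and it was so with 2 of the 3. Its exons overlap the antisense gene LOXL1-AS1, and since no source used here says whether strand was counted, reads of the pair cannot be told apart with certainty. LOXL1-AS1 was at 5.58 CPM in NC and 0.549, 2.17 and 1.11 CPM with the hairpins.

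LOX (ENSG00000113083, chr5:122063195-122078360, minus strand), the founding lysyl oxidase of fibrillar collagen and elastin, held 17.9, 15.9 and 16.3 CPM in NC. The values were 11.8, 12.4 and 7.32 CPM in shRNA1, 8.30, 9.91 and 8.80 in shRNA2, and 22.9, 21.2 and 11.3 in shRNA3. Libraries of shRNA1 and shRNA2 all lay below NC, while shRNA3 had 2 libraries above and 1 below. LOX fell by 0.89 (SE 0.28) on the log2 scale with shRNA2, adjusted p 0.0190 by edgeR's quasi-likelihood test. The call was lost without NC library 1, shRNA2 library 1 or shRNA2 library 3 (adjusted p 0.0581, 0.0681 and 0.0670 by the same test). With shRNA1 the difference was -0.67 (0.28), adjusted p 0.0584 in edgeR's quasi-likelihood test, and with shRNA3 it was 0.14 (0.28), adjusted p 0.687.

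For shRNA3 the sign of LOX followed the library and the scaling. It was -0.53 without libraries 1 and 2 and -0.25 when libraries were scaled by totals alone, neither of which passed the test. LOX was lower with shRNA1 and shRNA2 than with shRNA3 by -0.81 and -1.03, adjusted p 0.0478 and 0.0482 by edgeR's quasi-likelihood test; without libraries 1 and 2 of shRNA3 these values were -0.12 and -0.34, adjusted p 0.825 and 0.545. Both LOX calls were borderline: they were also lost on leaving out any 1 NC library, with adjusted p-values of 0.0691 to 0.0778 in edgeR's quasi-likelihood test. Between shRNA2 and shRNA3, 8.34% of all tested genes were called, and LOX was the 1 member. SRFBP1, whose exons overlap LOX on the opposite strand, was at 17.5 CPM with the control hairpin and at 35.2, 12.8 and 16.0 CPM with the 3 hairpins, called higher with shRNA1 alone.

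**Figure D2:**
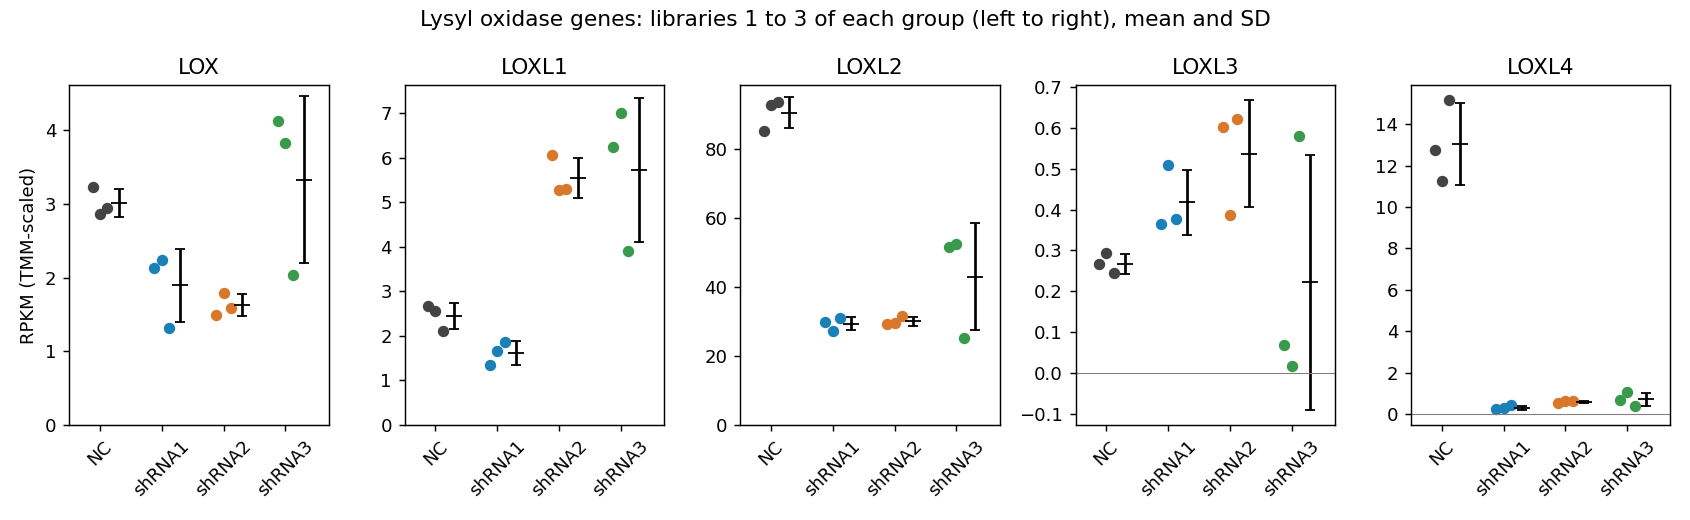
TMM-scaled RPKM of the 5 lysyl oxidases on a linear axis of its own for each gene, with points for libraries 1 to 3 from left to right, and a horizontal tick and error bar beside them for the group mean and SD (n = 3). LOXL2 and LOXL4 are lower in all 9 shRNA libraries, LOXL1 is higher with shRNA2 and shRNA3 alone, and shRNA3 is split between libraries 1 and 2 and library 3.

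The stretches just upstream of BGN and LOX are shown because these genes differ in how they followed the hairpins: BGN was lower with all 3, and LOX was not. RefSeq windows on GRCh38.p14 were found for 7 of the 10 genes and reach 250 bases upstream of the listed start. They are cut here before the first annotated exon, which leaves none for FMOD or LOXL1. Capitals mark matches to the motifs searched on both strands: TATAAA (the TATA box), CCAAT (the CCAAT box), GGGCGG (the GC box), TGANTCA (the AP-1 motif) and ACGTG (a core of hypoxia-response elements). The BGN stretch is chrX:153494730-153494938, plus strand, and the LOX stretch is chr5:122078361-122078509, minus strand, for the first of 3 listed starts.
BGN: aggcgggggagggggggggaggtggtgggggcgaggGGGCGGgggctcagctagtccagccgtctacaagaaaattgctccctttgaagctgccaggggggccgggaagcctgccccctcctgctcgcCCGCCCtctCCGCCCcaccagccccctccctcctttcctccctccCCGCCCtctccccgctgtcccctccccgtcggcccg
LOX: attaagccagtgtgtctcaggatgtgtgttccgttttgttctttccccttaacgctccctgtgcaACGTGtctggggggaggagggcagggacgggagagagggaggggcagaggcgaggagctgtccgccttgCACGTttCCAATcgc

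The BGN stretch was rich in G and C (74.2%, against a median of 57.4% over all windows of its length) and held GGGCGG 4 times, 1 of them on the gene's strand. Of all 35116 windows of that length, 36.9% held GGGCGG. The LOX stretch held ACGTG 2 times and CCAAT 1 time, which 10.4% and 18.7% of windows of its length held. A match is a description of letters and shows no binding.

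**Figure D3:**
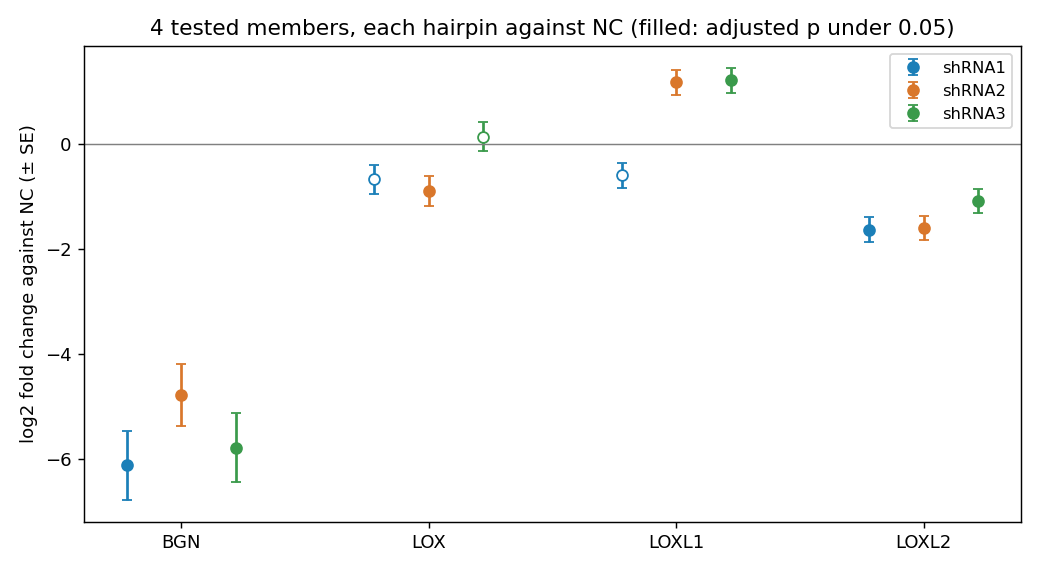
Log2 fold changes with SE of BGN, LOX, LOXL1 and LOXL2 for each hairpin against NC, filled where the adjusted p of edgeR's quasi-likelihood test is under 0.05. BGN and LOXL2 lie below 0 for all 3 hairpins, LOXL1 lies above 0 for shRNA2 and shRNA3 and below 0 for shRNA1, and LUM is left out because groups at 0 counts give no bounded fold.

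Among the 13 other members of the 2 families, 7 were tested. For the mean of the 3 hairpins against NC, a comparison in which 60% of all tested genes were called (27.9% higher and 32.2% lower), 1 of the 7 rose and 4 fell (median log2 fold change -1.79, against -0.03 over all tested genes). CHAD and CHADL reached the filter mainly through NC and ECM2 through the hairpin libraries, so these counts and this median describe the genes that passed and support nothing about the families. The same holds for the low genes of the lists that follow, such as COL1A2, COL5A3, ADAMTS3, CHSY3 and TLR2. Only LOXL4 met the rule for naming. LOXL4, an oxidase of basement-membrane collagen, held 47.7 ± 7.21 CPM in NC and 1.12 ± 0.353, 2.15 ± 0.146 and 2.55 ± 1.22 CPM with the hairpins (SD, n = 3). Its log2 fold changes of -5.41 (SE 0.38), -4.47 (0.36) and -4.24 (0.36) had adjusted p-values of 1.00e-06, 2.51e-06 and 3.61e-06 by edgeR's quasi-likelihood test, and the shRNA3 value was -5.12 without libraries 1 and 2.

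A few more relatives were picked after their values were seen, because they bear on whether another family member was higher. ECM2, a matrix protein with leucine-rich repeats, had 4 counts over NC and 54, 36 and 48 over the shRNA groups. It was called higher with all 3 hairpins (adjusted p 0.0148, 0.0299 and 0.0159, edgeR's quasi-likelihood test), although 1 of 9 shRNA libraries did not exceed the highest NC library. In shRNA3, 40 of the 48 counts came from library 3. Without it the ECM2 value for shRNA3 went from 3.61 to 2.02 (adjusted p 0.109, edgeR's quasi-likelihood test), and without libraries 1 and 2 it was 4.79. TSKU, a secreted proteoglycan known as a Wnt and TGF-beta modulator, was the most abundant proteoglycan in NC at 15.7 ± 0.583 RPKM. Its fold changes of 0.20, 0.29 and -0.49 (log2) did not pass edgeR's quasi-likelihood test (adjusted p 0.667, 0.538 and 0.295). All libraries of shRNA1 (72.8 to 76.4 CPM) and of shRNA2 (78.7 to 80.6 CPM) lay above every NC library (62.2 to 67.0 CPM). The test was made in 1 model over all 12 libraries, those of shRNA3 included. In shRNA3, TSKU stood at 25.6, 25.05 and 87.1 CPM, with libraries 1 and 2 below and library 3 above every NC library. Without libraries 1 and 2 its value was 0.46 and without library 3 it was -1.36, and both passed (adjusted p 0.00332 and 1.06e-08, edgeR's quasi-likelihood test). LOXL3, the remaining oxidase, was at 1.17 CPM in NC and 1.82, 2.34 and 0.967 CPM with the hairpins, and was not called for any of them. Its shRNA3 libraries held 0.296, 0.0728 and 2.53 CPM, so 7 of 9 shRNA libraries lay above every NC library and the other 2 below. Without libraries 1 and 2, LOXL3 was 1.14 above NC with shRNA3 (adjusted p 0.0236, edgeR's quasi-likelihood test), and without library 3 it was -2.63.

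The make-up of each family differed with the hairpins. The summed level of the 5 lysyl oxidases was 109 ± 4.89 RPKM in NC and 33.7 ± 1.53, 38.5 ± 1.21 and 53.1 ± 18.2 RPKM with shRNA1, shRNA2 and shRNA3 (SD, n = 3). LOXL2 made up 82.8% of it in NC and 87.3%, 78.4% and 80.8% with the hairpins. LOXL1's share was 2.24% in NC, 4.83% with shRNA1, 14.4% with shRNA2 and 11.002% with shRNA3. LOXL4's mean share went from 11.9% in NC to between 0.907% and 1.53% in the hairpin groups. LOXL1's share in shRNA1 was thus above that of NC although its level was below. The summed level of the proteoglycans was 21.0 ± 0.817 RPKM in NC, 18.8 ± 0.761 and 19.9 ± 0.0861 with shRNA1 and shRNA2, and 11.8 ± 8.76 with shRNA3, where libraries 1 and 2 had a low TSKU. TSKU made up 74.6% in NC and 96.1%, 96.7% and 92.9% with the hairpins. BGN's mean share went from 16.5% in NC to at most 0.691% in a hairpin group, with 1.79% in library 1 of shRNA3. No test was made of these shares.

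**Figure D4:**
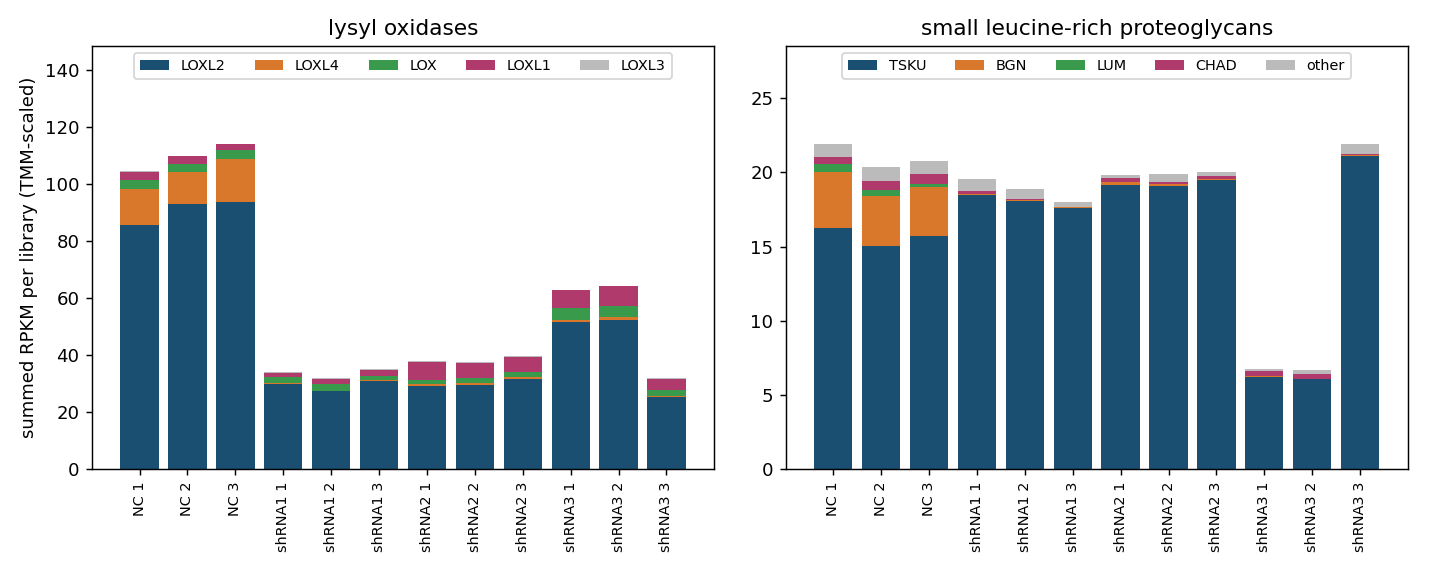
Summed TMM-scaled RPKM of the lysyl oxidases (left) and of the small leucine-rich proteoglycans (right) in each library, stacked by gene. LOXL2 makes up most of the left bars in all libraries, and the BGN segment of the NC bars is nearly gone from the shRNA bars, of which TSKU makes up most.

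The substrates and helpers of these proteins were read from lists. Of 12 fibrillar collagen and elastin genes, 7 were tested, and for the mean of the hairpins 1 rose and 3 fell (median -0.39, against -0.03 over all tested genes). For that mean, 27.9% of all tested genes rose and 32.2% fell. COL1A2, a chain of type I collagen, was at 4.80 ± 0.442 CPM in NC, had 4 and 1 counts in all over shRNA1 and shRNA3, and 0 in shRNA2, which makes it at least 84.8-fold lower there against the floor of 3 counts over a group. COL27A1, a cartilage-type fibrillar collagen, fell from 35.6 ± 4.41 CPM to 15.9 ± 3.52, 5.38 ± 0.316 and 10.6 ± 3.17. COL11A2, a chain of type XI collagen, fell from 6.52 ± 0.828 CPM to 1.60 ± 0.409, 0.437 ± 0.188 and 1.15 ± 0.354. COL5A3, a minor type V chain, rose from 3 counts over NC (0.0501 CPM pooled) to 2.75 ± 0.392, 3.76 ± 0.265 and 1.28 ± 0.634 CPM. Each of these 4 passed edgeR's quasi-likelihood test with all 3 hairpins, with the highest adjusted p being 0.00170, for COL27A1 in shRNA1. Type I collagen did not move as a unit: COL1A1 was called lower with shRNA1 alone (-1.27) and stood at 0.10 and 0.66 (log2) with the others, not called. The shRNA3 libraries of COL1A1 held 80.3, 85.3 and 31.8 CPM, and the value for that hairpin was -0.36 without libraries 1 and 2.

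Of 16 genes that process procollagen or the oxidases, or place them on the matrix, 14 were tested. For the mean of the hairpins 3 rose and 6 fell (median -0.22), where 27.9% of all tested genes rose and 32.2% fell (median -0.03). PLOD2, which hydroxylates the collagen lysines that lysyl oxidases later use, fell from 139 ± 10.1 CPM to 64.3 ± 6.69, 40.9 ± 3.35 and 41.6 ± 7.27. EFEMP2, the fibulin that carries LOX to elastin, fell from 9.88 ± 2.33 CPM to 1.21 ± 0.393, 1.23 ± 0.389 and 3.72 ± 1.90, and its shRNA3 value of -1.42 (log2) was -2.65 without libraries 1 and 2. FBLN5, the fibulin that binds LOXL1, rose from 0.482 ± 0.228 CPM to 1.21 ± 0.255, 1.57 ± 0.533 and 1.76 ± 0.398. The 2 fibulins thus moved apart, from levels that differed in NC.

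Among the proteinases that cut procollagens and pro-lysyl oxidase, the tolloid genes also moved apart. TLL1 rose from 1.20 ± 0.245 CPM to 3.69 ± 2.24, 4.49 ± 0.578 and 5.28 ± 2.47, and TLL2 fell from 8.51 ± 1.80 CPM to 0.857 ± 0.438, 0.320 ± 0.0783 and 0.886 ± 0.0814. The rise of TLL1 with shRNA3 (2.12, log2) was 1.07 without libraries 1 and 2 and no longer passed edgeR's quasi-likelihood test (adjusted p 0.106). BMP1, the main enzyme of this kind, was not called with any hairpin (-0.13, -0.19 and 0.52), and its shRNA3 value was -0.16 without libraries 1 and 2. ADAMTS3, a procollagen proteinase, had 101 counts over NC and 6, 0 and 3 over the hairpin groups, and passed edgeR's quasi-likelihood test with all 3.

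Of 25 genes that build the sugar chains of the proteoglycans, 23 were tested. For the mean of the hairpins 5 rose and 11 fell (median -0.34), against 27.9% and 32.2% of all tested genes (median -0.03). With all 3 hairpins, 0 rose and 6 fell, while 16% and 19.7% of all tested genes did so. CHPF, a chondroitin polymerising factor, was the most abundant of the 6 and fell from 502 ± 55.1 CPM to 114 ± 7.85, 138 ± 7.04 and 164 ± 28.2. The keratan sulfate sulfotransferase CHST1 had 917 counts over NC (15.3 ± 0.728 CPM) and 8, 2 and 6 counts over the hairpin groups. CHST2, which also sulfates keratan-type chains, fell from 19.4 ± 2.002 CPM to 1.58 ± 0.299, 0.454 ± 0.258 and 2.47 ± 0.844. CHSY3, a chondroitin synthase, had 192 counts over NC and 1, 5 and 3 over the hairpin groups. XYLT2 and B3GAT3, which build the linker to the core protein, fell less, by 1.19, 0.38 and 1.05 and by 0.91, 0.57 and 0.69 on the log2 scale.

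Of 11 growth factors and receptors known to bind these proteoglycans, 9 were tested, and for the mean of the hairpins 2 rose and 5 fell (median -1.11). Among all tested genes, 27.9% rose and 32.2% fell in that comparison (median -0.03). TLR2, a receptor for biglycan, had 472 counts over NC and 0, 1 and 2 over the hairpin groups. TGFB2, a ligand held by decorin, biglycan and fibromodulin, was at 59.7 ± 19.1 CPM in NC (3570 counts in all). It was at 1.72 ± 0.554 CPM in shRNA1 and at 3 and 2 counts in all in shRNA2 and shRNA3. MET fell from 468 ± 27.1 CPM to 263 ± 72.6, 159 ± 7.76 and 247 ± 59.7, and EGFR, both receptors for decorin, from 1307 ± 54.6 CPM to 312 ± 26.9, 237 ± 12.3 and 166 ± 76.9. All 4 passed edgeR's quasi-likelihood test with each hairpin, the highest adjusted p being 0.00581 for MET in shRNA1. Without libraries 1 and 2 of shRNA3, EGFR was -2.34 with that hairpin, against -2.98 with them.

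**Figure D5:**
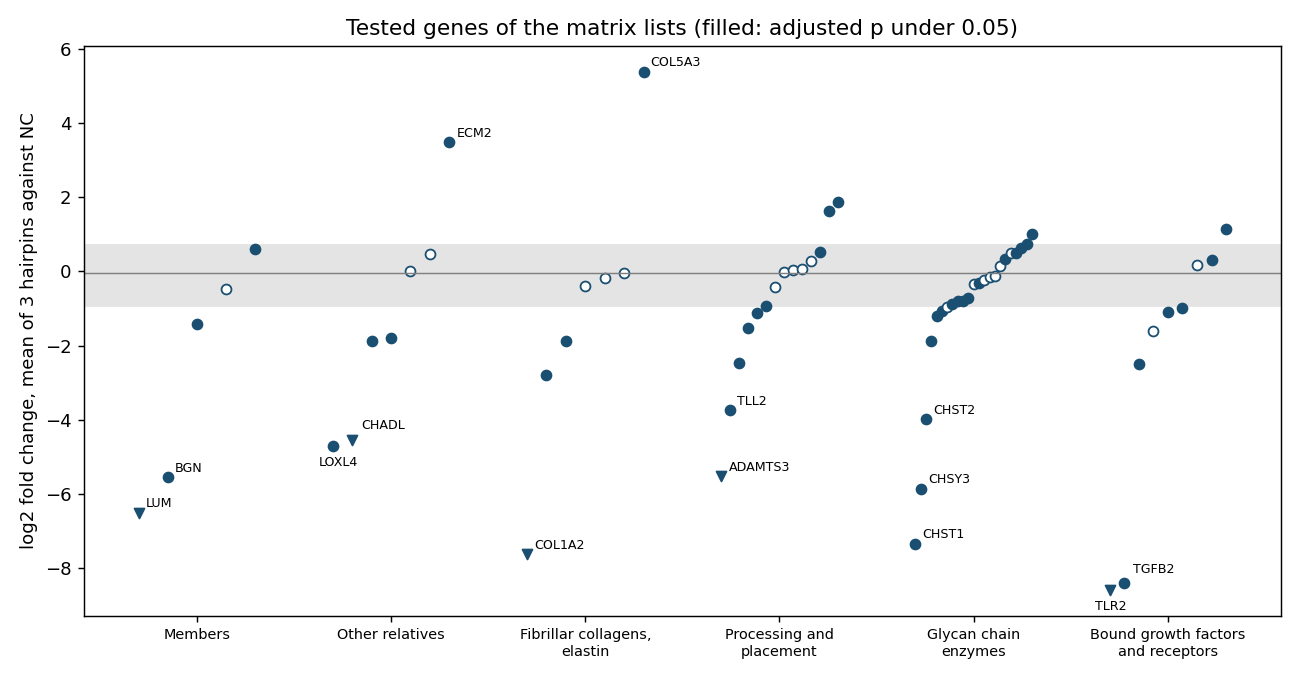
Log2 fold changes of the mean of the 3 hairpins against NC for each tested gene of the 6 lists, filled where the adjusted p is under 0.05, with triangles for genes at 0 counts in a whole shRNA group, whose fitted value depends on the prior count. The grey band spans the middle 50% of all tested genes, from -0.94 to 0.72.

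Markers of other cell types were read beside these results. The summed level of 10 fibroblast markers (members left out) was 59.3 to 62.0 CPM in NC and 374 to 899 CPM over the shRNA libraries. Over the shRNA libraries most of that sum was VIM, an intermediate filament gene. VIM was at 3.26 CPM in NC and 445, 608 and 693 CPM with the hairpins. In NC the largest part was COL1A1, at 41.7 CPM. PDGFRB and COL1A2 were called lower with all 3 hairpins, and COL3A1 had at most 3 counts in a library. Endothelial markers summed to 17.9 to 23.4 CPM in NC and 4.03 to 14.2 CPM over the shRNA libraries, with EMCN at 0 throughout. Within that sum, PECAM1 was called higher with all 3 hairpins, and CDH5 and VWF were called lower. The shRNA3 values of CDH5 and VWF were -3.62 and -1.89 (log2). They were -2.63 and -1.22 without libraries 1 and 2. Leukocyte markers summed to 57.6 to 75.2 CPM and 49.0 to 241 CPM, with PTPRC at 0 in NC and at most 9 counts in a library. Of these, CSF1R was called higher with all 3 hairpins. The shRNA3 value of CSF1R was 1.15 (log2), and 1.80 without libraries 1 and 2. In shRNA3 most of that sum was CD68 alone, at 235, 229 and 108 CPM in libraries 1 to 3. Its log2 value for that hairpin was 1.60, and 0.80 without libraries 1 and 2. Smooth muscle and pericyte markers summed to 29.2 to 30.7 CPM and 37.6 to 89.0 CPM. Of these, MYH11, DES and CSPG4 were called higher with all 3 hairpins, and ACTA2 was called lower. The shRNA3 values of DES and ACTA2 were 4.47 and -2.62 (log2), and 3.59 and -3.28 without libraries 1 and 2 of shRNA3. KRT5, a keratin of basal squamous cells, was at 1008 CPM in NC and 21.4, 80.1 and 74.8 CPM with the hairpins. KRT5 and the squamous markers CDH1 and PKP1 were called lower with all 3 hairpins. With shRNA3, CDH1 and PKP1 both stood at -2.29 (log2), and PKP1 at -3.42 without libraries 1 and 2. Other squamous genes were called higher with all 3: KRT14 averaged 7.58 CPM in NC against 55.4, 24.5 and 149, KRT6A 92.2 against 284, 428 and 211, KRT17 312 against 647, 571 and 748, and DSP 288 against 807, 978 and 669 CPM. The shRNA3 libraries of KRT14 held 230.3, 191 and 25.1 CPM, and its value for that hairpin was 1.76 (log2) without libraries 1 and 2, against 4.30 with them. The part of these differences in the results for BGN, LUM and the oxidases was not tested.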

How the data were processed

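RNA of 12 SCC-15 libraries was measured as estimated counts per gene in 1 table that the authors deposited; 13.8% of its values were not whole, and they were rounded. Alignment tools listed in the submitters' processing notes are HISAT2 and HTSeq 0.11.2 with GRCh38; per the labels' protocols, libraries were made with an NEBNext Ultra RNA kit. How fractions arose, the annotation and the use of strand are not given in the sources used here. Columns were matched to samples by title (0 unmatched).

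Counts were scaled by TMM, filtered with filterByExpr (minimum count 10, minimum total 15) and tested with edgeR 4.0.16 in R 4.3.3: a robust quasi-likelihood F test, two-sided, in 1 model of the 4 groups (8 residual degrees of freedom, common biological coefficient of variation 0.289), with Benjamini-Hochberg adjustment and a threshold of 0.05. Library totals, 17286934 to 19567192, put 3 counts, used as the floor, at 0.145 to 0.222 CPM. CPM and RPKM are TMM-scaled, with lengths and positions from GENCODE 29.

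All 10 family genes were named. From 5 matrix lists, genes called in 1 direction with all 3 hairpins and with every shRNA library beyond every NC library were named, at most 6 per list. Members and lists were chosen with earlier results of these data known. Alternatives were DESeq2 size factors, library totals, no filter, a mean of 50 counts, the DESeq2 Wald test (1.42.0), a replicate block, only the groups compared, and libraries left out.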

Additional observations from a re-analysis of the deposited data

Results flagged for a closer look

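The hairpins, all directed at FMOD, differed from each other in 2 of the oxidases, by edgeR's quasi-likelihood test of each pair. LOXL1 was lower with shRNA1 than with shRNA2 by -1.77 (adjusted p 0.00233, quasi-likelihood test) and than with shRNA3 by -1.81 (adjusted p 0.00248, quasi-likelihood test), with no overlap of libraries. LOX was lower with shRNA1 than with shRNA3 by -0.81 (adjusted p 0.0478, quasi-likelihood test) and with shRNA2 than with shRNA3 by -1.03 (adjusted p 0.0482, quasi-likelihood test). Both LOX calls were borderline. They were lost in 11 and 10 of the 12 fits that left out 1 library, without a filter (adjusted p 0.0772 and 0.0622, quasi-likelihood test) and with library totals (0.144 and 0.0880). In libraries 1 and 2 of shRNA3, LOX was 1.95 times its level in library 3 after TMM scaling and 1.43 times by library totals.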

How the results depend on the processing

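No member's called value changed sign under any alternative run. LUM, BGN and LOXL2 stayed called against NC in each, except that a mean of at least 50 counts removed LUM and BGN from testing. That setting left LOX, LOXL1 and LOXL2 to be tested. All 3 were called for shRNA2 and 2 for shRNA3, where 6812 and 7050 of all genes were called, against 9290 and 9457 as reported. In the relatives and fibril lists 1 gene each was called for the mean of the hairpins, because fewer genes were tested. Over all genes, that mean had 7645 calls, against 10525 as reported. For shRNA1, 5 members were called with library totals alone, the DESeq2 Wald test, only the groups compared, or libraries 1 and 2 of shRNA3 left out, LOX and LOXL1 being added; over all genes, calls were 9479, 10540, 12154 and 13616 in these, against 10056 as reported. The cause was not tested.

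Calls between hairpins were unstable. For shRNA1 against shRNA2, genes called were 1420 without a filter, 3464 by DESeq2, 6252 with only the groups compared and 7031 without libraries 1 and 2 of shRNA3. For shRNA1 against shRNA3 they were 0 with only the groups compared (4295 at an unadjusted p under 0.05 by edgeR, with 0 members called and 1 at that p) and 1547 without those libraries; 1 member was called with library totals, no filter or those libraries left out. For shRNA2 against shRNA3 they were 592 with library totals, 911 without a filter, 3793 by DESeq2, 0 with only the groups compared (3186 at an unadjusted p under 0.05 by edgeR) and 244 without those libraries, with 0 members called in each of these except DESeq2. Leaving out 1 library gave 559 to 7233, 1788 to 11573 and 0 to 10799 genes in the 3 pairs, and 1 to 3 members for shRNA1 against shRNA3 and 0 to 2 for shRNA2 against shRNA3; the highest were without library 3 of shRNA3. For shRNA1 against NC, leaving out 1 library gave 3 to 5 members and 8677 to 13341 genes, both highest without library 3 of shRNA3.

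LOXL1 for the mean of the hairpins (0.61, adjusted p 0.0209, edgeR) lost its call with library totals (0.0601) and without NC library 2 (0.0536) or 3 (0.102). Replicate numbers did not pair the libraries: deviations of same-numbered libraries correlated at -0.0107 on average (18 pairs). With the replicate block, genes called for shRNA2 against shRNA3 fell to 378 and members to 0, and LOX with shRNA1 was called (-0.71, adjusted p 0.0359, edgeR). Depth limits FMOD, DCN, OGN and ASPN to statements on detection.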

Other observations

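The genes whose levels followed LOXL2 most closely over the 12 libraries (Pearson r of log2(CPM + 1), among 14048 tested protein-coding genes) were TINAGL1, a matricellular protein gene, at 0.997, CALR, an endoplasmic reticulum chaperone, at 0.995, and RPS3, a ribosomal protein gene, at 0.995. LOXL2 had 270 genes above 0.95. For LOX the rule named none, since it took the 2 members with the highest mean CPM, LOXL2 and LOXL1. LOXL1 had 30 genes above 0.95, led by ZNRF1 (0.984), RFX2 (0.982) and KAZALD1 (0.980). RFX2, a transcription factor of the ciliary programme, averaged 20.6 CPM in NC, against 15.9, 37.7 and 42.7 CPM with shRNA1, shRNA2 and shRNA3, so its means too lay on both sides of NC. These libraries share their groups, so the values are a description and carry no test.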
